A study of Rattus norvegicus with 10 samples.

Results

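The genes described here are 10 steroid- and lipid-metabolising oxidoreductases of the rat: the hydroxysteroid dehydrogenases *Hsd11b1*, *Hsd17b2*, *Hsd17b7*, *Hsd17b8*, *Hsd17b11*, *Hsd17b12* and *Hsd17b13*, the steroid 5α-reductase *Srd5a1*, and the neighbouring short-chain dehydrogenases *Dhrs7* and *Dhrs7l1*. They were taken by symbol from a table of 32545 genes, and all 10 were found once. Their choice was made with the difference between the sexes in these same libraries already known, so each adjusted p printed for one of them only places that gene among all genes and supports nothing. RNA-seq was run on kidney tissue, renal cortex by the study's methods, of 5 male and 5 female PCK rats (PCK/CrljCrl-Pkhd1pck/Crl), 1 library per rat. All 10 rats carry the *Pkhd1* mutation that gives this strain kidney and liver cysts like those of autosomal recessive polycystic kidney disease, none was treated, and no rat without cysts was compared. The rats were littermates from 2 litters, and which rat came from which litter is not given in the sources used here. Their age is 12 to 14 weeks in the labels and 10 to 12 weeks in the methods.

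Hydroxysteroid dehydrogenases move hydrogen between NAD(P)H and steroids, which switches a hormone between a form that binds its receptor well and one that binds it poorly. In the kidney, 11β-hydroxysteroid dehydrogenase type 2 (*Hsd11b2*) inactivates glucocorticoids in the aldosterone-sensitive distal nephron and so protects the mineralocorticoid receptor, whereas type 1 (*Hsd11b1*) regenerates active glucocorticoid with NADPH made by hexose-6-phosphate dehydrogenase (*H6pd*). Several enzymes numbered as 17β-hydroxysteroid dehydrogenases work mainly on other substrates, such as fatty acyl chains, sterol precursors or retinoids.

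The values are FPKM, fragments scaled to gene length and library size, which allow levels of different genes in a library to be compared per length. Libraries held 13912569 to 20285911 reads on genes in males and 14963924 to 19556707 in females. Mitochondrial transcripts took 15.1 to 17.03% of the reads in males and 14.3 to 26.8% in females, where female 2, at 26.8%, stood apart. No pair of libraries of the same sex was alike within sampling noise. Markers of proximal tubule, the most abundant cortical segment, summed to 1470 to 2557 FPKM in the males and 1296 to 2711 FPKM in the females. Of this sum *Slc34a1* alone averaged 1257 FPKM over the 10 libraries. Among the 6 markers, 4 fold changes were positive and 2 negative. *Cubn* was called higher in females (log2 fold change 0.72, limma adjusted p = 0.0467, kept in 2 of 10 fits without 1 library). *Aqp1* differed the other way and was not called (−0.56, limma adjusted p = 0.233). Markers of the other nephron segments were read as well, except *Pvalb*, at 0 reads in all libraries. Adrenocortical markers summed to 0.816 to 1.48 FPKM in males and 0.820 to 1.37 in females, with at most 26 reads for any of the 5 (*Cyp21a1*). Hepatocyte markers summed to 0.366 to 2.12 FPKM in males and 0.646 to 1.71 in females, with at most 68 reads for *Serpina1* and 2 for *Alb*, while *Ttr* had 0 reads in every male and 1 to 12 in every female and was called higher in females (limma adjusted p = 0.0142). In bulk tissue such as this, fewer cells of a type and less RNA per cell cannot be told apart.

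Of the 10 genes, 4 lie in 2 tandem pairs. On chromosome 6 of Rnor_6.0, the build of the deposited table, *Dhrs7l1* (95387718 to 95502845) and *Dhrs7* (95522577 to 95541393) are both read from the minus strand, 19731 bp apart. On chromosome 14, *Hsd17b11* (7073445 to 7104566) and *Hsd17b13* (7113544 to 7128218) are both read from the plus strand, 8977 bp apart. No other gene of the table lies between the partners of either pair. All but *Hsd17b8* and *Srd5a1* carry the short-chain dehydrogenase annotation (adh_short) in the table, which 48 of its genes have. Partners of each pair differed widely in level: *Hsd17b11* was 81.1-fold ± 16.7 (SD, n = 5) above *Hsd17b13* in males and 101-fold ± 31.9 (SD, n = 5) above it in females, and *Dhrs7l1* stood above *Dhrs7* in every male and below it in every female.

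Because partners of a pair share a neighbourhood and yet differ in level or between the sexes, their promoters are shown side by side. Each run below is the 250 bases before the RefSeq gene start in the assembly GRCr8, written 5′ to 3′ in the direction of the gene, and capitals mark each match to 1 of 5 short motifs on either strand. RefSeq starts in GRCr8 need not be the starts in the deposited gene models.
Dhrs7l1, chr6:97047900-97048149 of GRCr8, minus strand: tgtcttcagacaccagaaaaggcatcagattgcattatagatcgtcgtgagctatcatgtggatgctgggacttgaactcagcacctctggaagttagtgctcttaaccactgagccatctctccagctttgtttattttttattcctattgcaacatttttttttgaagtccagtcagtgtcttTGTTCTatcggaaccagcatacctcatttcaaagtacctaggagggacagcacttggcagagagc
Dhrs7, chr6:97083745-97083994 of GRCr8, minus strand: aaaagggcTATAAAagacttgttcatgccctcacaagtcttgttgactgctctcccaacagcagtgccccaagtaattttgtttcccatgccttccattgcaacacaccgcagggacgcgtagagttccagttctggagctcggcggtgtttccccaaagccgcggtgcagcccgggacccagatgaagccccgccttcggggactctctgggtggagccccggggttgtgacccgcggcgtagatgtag
Hsd17b11, chr14:6016440-6016689 of GRCr8, plus strand: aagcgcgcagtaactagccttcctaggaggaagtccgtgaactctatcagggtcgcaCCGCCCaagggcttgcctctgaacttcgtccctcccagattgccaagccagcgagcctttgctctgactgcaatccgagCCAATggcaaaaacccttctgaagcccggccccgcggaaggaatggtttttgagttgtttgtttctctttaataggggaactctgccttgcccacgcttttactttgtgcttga
Hsd17b13, chr14:6056539-6056788 of GRCr8, plus strand: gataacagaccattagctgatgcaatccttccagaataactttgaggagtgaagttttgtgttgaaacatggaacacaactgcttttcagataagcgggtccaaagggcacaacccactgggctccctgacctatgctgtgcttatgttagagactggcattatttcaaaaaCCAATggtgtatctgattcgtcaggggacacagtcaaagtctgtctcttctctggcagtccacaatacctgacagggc

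The motifs searched, on both strands, were TATAAA (the TATA box), GGGCGG (the GC box), CCAAT (the box of that name), AGAACA (a steroid receptor half-site) and TTCNNNGAA (STAT5 site), and no match overlapped another motif in the 4 runs shown. The *Dhrs7l1* window held a single match, the reverse strand of the receptor half-site (TGTTCT) 65 bases before the start, which 17.5% of 33469 rat promoter windows of the same length also hold. The *Dhrs7* window held a TATA box, far from its usual place, 242 bases before the start. In the chromosome 14 pair, *Hsd17b11* had a GC box on the reverse strand and a CCAAT box, and *Hsd17b13* a CCAAT box alone. Base composition separated the partners as well. GC content was 43.2% in *Dhrs7l1* against 58.0% in *Dhrs7*, with 3 and 14 CpG dinucleotides, and 45.6% in *Hsd17b13* against 53.6% in *Hsd17b11*, with 2 and 12 CpG. The median over all promoter windows was 51.2% with 5 CpG.

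RefSeq windows were matched for 8 of the 10 genes, all but *Hsd11b1* and *Hsd17b2*. Of these 8, 6 held CCAAT, against 34.02% of all windows, 4 held GGGCGG, against 30.5%, and 1 held TATAAA, against 12.9%. The receptor half-site was in *Dhrs7l1* and *Hsd17b7*, and TTCNNNGAA, present in 7.67% of all windows, was in none of them. These matches describe letters in a window and say nothing of binding.

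*Dhrs7l1*, named for its likeness to *Dhrs7*, had the widest separation between the sexes among the 10 genes. It was read at 78.1, 127, 76.1, 131 and 171 FPKM in males 1 to 5 and at 1.01, 1.75, 1.07, 1.21 and 1.04 FPKM in females 1 to 5. The lowest male was thus far above the highest female, and the mean of 117 ± 40.0 FPKM in males (SD, n = 5) was 96.1-fold that of 1.21 ± 0.309 FPKM in the females (SD, n = 5). On log2(FPKM + 0.1), the scale of all fold changes given here, the difference was −6.43 ± 0.23 (SE, limma, adjusted p = 4.68e-08), the 6th smallest p among 17631 genes tested. In females 45 to 67 reads were assigned to it per library, against 2983 to 7356 in males, and whether some of the female reads came from its neighbour *Dhrs7*, with 125 to 190 reads there, was not tested. The neighbour *Dhrs7*, a microsomal reductase with activity on steroids and retinoids in vitro, had 11.3, 9.67, 10.05, 11.2 and 14.9 FPKM in the males and 8.36, 10.2, 8.72, 6.74 and 6.08 FPKM in the females. Only female 2 reached into the male range, and the difference was −0.51 ± 0.16 (SE, adjusted p = 0.134, and 0.0621 to 0.276 without single libraries). As a ratio within each library, *Dhrs7l1* over *Dhrs7* was 6.88 to 13.2 in males and 0.121 to 0.179 in females.

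**Figure D1:**
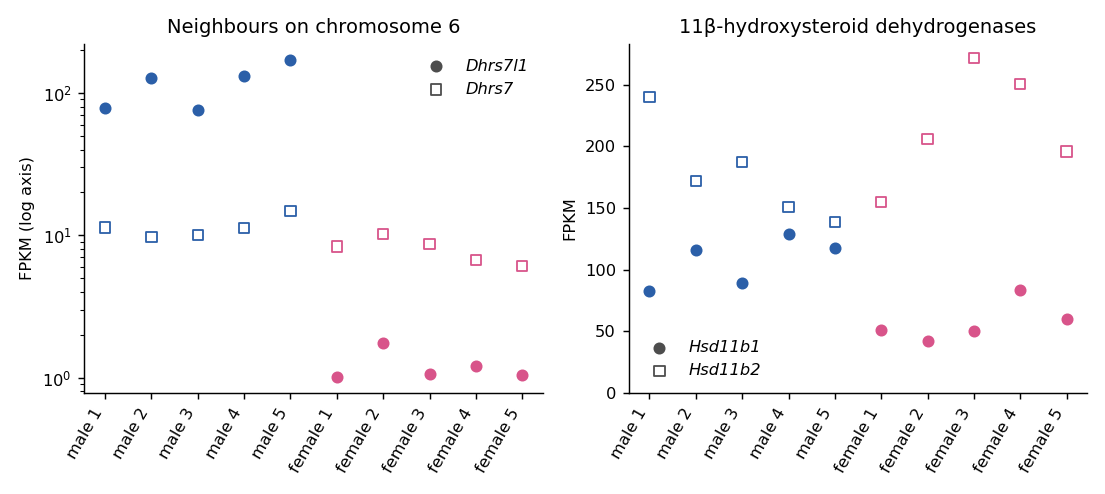
FPKM in each of the 10 libraries, males in blue and females in pink. Left, on a log axis, *Dhrs7l1* (filled circles) lies above *Dhrs7* (open squares) in all 5 males and below it in all 5 females; right, on a linear axis, *Hsd11b2* (open squares) lies above *Hsd11b1* (filled circles) in all 10 libraries.

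Within each sex, *Dhrs7l1* and *Dhrs7* showed no relation that 10 libraries could establish. After centring on the sex means, Pearson's r was 0.555 (exact permutation p = 0.101, adjusted 0.703) and Spearman's rho 0.394 (exact permutation p = 0.271, adjusted 0.818), and without male 5 and female 2, the 2 libraries farthest from the median of *Dhrs7l1*, r was −0.119. *Hsd17b11* and *Hsd17b13* gave r = −0.138 (exact permutation p = 0.744, adjusted 0.934) and rho = −0.127 (exact permutation p = 0.755, adjusted 0.894), with r = 0.0559 without females 1 and 4. All 45 pairs of the 10 genes were computed and the adjustment is over them, with r from −0.773 to 0.795 and none at an adjusted p of at most 0.05.

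*Hsd11b1* (ENSRNOG00000005861, chromosome 13, 111926442 to 111972603) makes active glucocorticoid from its inactive keto form. Its levels were 82.9, 116, 88.9, 129 and 117 FPKM in males 1 to 5 and 51.3, 42.5, 50.1, 83.2 and 60.2 FPKM in females 1 to 5. Female 4 reached male 1, and the other 4 females were below every male. The mean fell from 107 ± 19.8 FPKM in the males to 57.5 ± 15.7 FPKM in the females (SD, n = 5 each), a log2 fold change of −0.91 ± 0.18 (SE, limma, adjusted p = 0.0250). This call was lost in 6 of 10 fits that left out 1 library, those without males 2, 4 or 5 and without females 1, 3 or 5, and its adjusted p over the 10 fits was 0.00697 to 0.0716. Of 4 stromal markers, *Col3a1* was called lower in females (limma adjusted p = 0.0477, lost in 7 of 10 fits without 1 library) and the other 3 were not called, though all 4 had negative fold changes at an unadjusted p under 0.05, a level that 15.7% of all genes tested reached. Their sums were 68.5 to 224 FPKM against 230 to 313 FPKM in males. Their part in the *Hsd11b1* difference was not tested.

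The opposing enzyme and the cofactor supply of *Hsd11b1* gave no call. *Hsd11b2* stood at 178 ± 39.6 FPKM in the males and 216 ± 46.1 FPKM in the females (SD, n = 5 each), a log2 fold change of 0.28 with a 95% interval of −0.12 to 0.67 (limma adjusted p = 0.498, exact permutation p = 0.190, two-sided). Principal cells are a site of *Hsd11b2*, and all 4 of their markers had positive fold changes, of 0.02 to 0.57, with *Avpr2* called (0.44, limma adjusted p = 0.0469, kept in 2 of 10 fits without 1 library). Their sums were 151 to 231 FPKM in males and 180 to 260 in females, and their part in the *Hsd11b2* levels and in its ratio to *Hsd11b1* was not tested. *H6pd* differed by 0.08, interval −0.23 to 0.39 (limma adjusted p = 0.846, exact permutation p = 0.548). Within each library, *Hsd11b1* over *Hsd11b2* was 0.345 to 0.852 in males and 0.185 to 0.332 in females, so that the lowest male ratio lay just above the highest female one. *Hsd11b1* over *H6pd* was 3.41 to 5.38 in males and 1.69 to 3.10 in females.

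*Hsd17b2* (ENSRNOG00000013982, chromosome 19, 50246402 to 50317891) oxidises testosterone to androstenedione and estradiol to estrone, which lowers the activity of both hormones. It had 2.86, 5.14, 3.12, 3.56 and 1.37 FPKM in males 1 to 5 and 7.14, 4.70, 8.55, 10.4 and 7.48 FPKM in females 1 to 5. The ranges overlapped through male 2 and female 2 alone. The mean was 3.21 ± 1.36 FPKM in the males and 7.66 ± 2.09 FPKM in the females (SD, n = 5 each), and the log2 fold change of 1.30 ± 0.31 (SE, limma, adjusted p = 0.0585) missed the threshold of 0.05. Without single libraries the adjusted p was 0.0348 to 0.128, with calls at 0.0358 without male 2 and 0.0348 without female 2, and 0.0376 with limma-voom on reads recovered from the FPKM. The gene was counted at 26 to 234 reads per library. Male 5, the lowest male, and female 2, the lowest female, were also the libraries with the least proximal tubule signal of their sex, at 1470 and 1296 FPKM summed over 6 markers. Between the sexes, 4 of these markers had positive fold changes and 2 negative, with *Cubn* called higher in females (limma adjusted p = 0.0467). The part of the proximal tubule signal in the *Hsd17b2* levels was not tested.

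*Srd5a1*, the 5α-reductase that turns testosterone into dihydrotestosterone, had 4.12, 4.08, 3.78, 3.88 and 3.29 FPKM in the males and 3.84, 6.76, 4.77, 5.76 and 4.76 FPKM in the females. Female 1 lay inside the male range and the other 4 females above it, and the log2 fold change of 0.40 ± 0.15 (SE, limma adjusted p = 0.204) was not called. Among males the spread of *Srd5a1* was little wider than that of counting, whereas among females it was wider. Its coefficient of variation was 8.70% in males and 21.6% in females, against 7.05% from the mean number of reads over all 10 libraries.

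**Figure D2:**
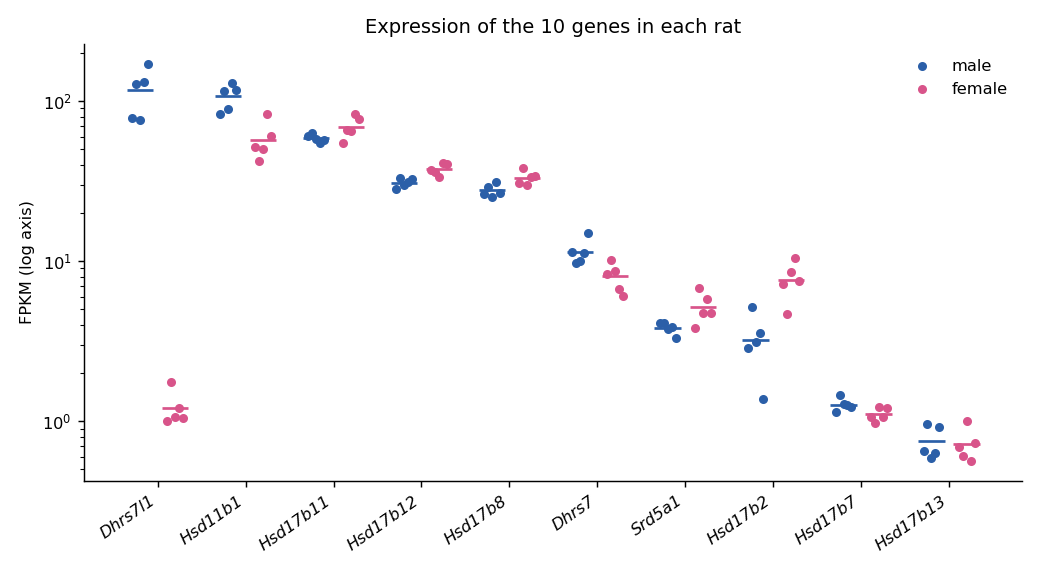
FPKM of the 10 genes on a log axis, 1 point per rat and a bar at the mean of each sex (n = 5), males in blue and females in pink, ordered by level in males. The sexes are fully apart for *Dhrs7l1* and, by a small margin, for *Hsd17b12*, and overlap for the other 8 genes.

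*Hsd17b12* (ENSRNOG00000009630, chromosome 3, 82924687 to 83048435), the 3-ketoacyl-CoA reductase of fatty acid elongation, showed a small difference with ranges that did not meet. It had 28.1, 33.0, 29.7, 31.2 and 32.6 FPKM in the males and 36.9, 36.0, 33.5, 40.9 and 40.6 FPKM in the females. The lowest female was just above the highest male, yet the log2 fold change of 0.28 ± 0.08 (SE, limma adjusted p = 0.106) did not pass over all genes. A processed pseudogene overlaps this gene on the other strand with 89 to 172 reads per library, and since the strand setting of the counting is not given in the sources used here, its reads and those of *Hsd17b12* may not be cleanly separated. *Hsd17b8* (ENSRNOG00000000466, chromosome 20, 3817179 to 3819235), a subunit with *Cbr4* of the ketoacyl reductase of mitochondrial fatty acid synthesis, ranged from 25.1 to 31.3 FPKM in the males and from 29.8 to 37.9 FPKM in the females (0.26 ± 0.09, SE, adjusted p = 0.182). *Hsd17b7* (ENSRNOG00000002826, chromosome 13, 88288046 to 88307988), the 3-ketosteroid reductase of cholesterol synthesis, was low, at 1.13 to 1.45 FPKM in the males and 0.973 to 1.23 FPKM in the females (−0.18 ± 0.14, SE, adjusted p = 0.579).

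The lipid droplet pair did not separate the sexes. *Hsd17b11*, a retinol and steroid dehydrogenase of lipid droplets, was steady among males at 60.8, 62.7, 57.9, 55.0 and 56.9 FPKM and more spread among females at 54.3, 66.1, 64.6, 83.4 and 77.1 FPKM (0.22 ± 0.11, SE, adjusted p = 0.366). *Hsd17b13*, a lipid droplet protein best known from liver, was at 0.588 to 0.954 FPKM in the males and 0.567 to 1.01 FPKM in the females on 11 to 23 reads per library. Its coefficient of variation, 23.3% in males and 24.1% in females, was no larger than the 25.2% that counting alone gives at that depth, and its difference of −0.06 had a 95% interval of −0.52 to 0.41. *Hsd17b7*, on 54 to 106 reads, was likewise spread by 9.07% and 10.02% where counting alone gives 11.3%. In the other 8 genes the spread between rats was above the counting spread in both sexes. The counting spread was taken from the mean reads over all 10 libraries, so for *Dhrs7l1*, with far fewer reads in females, it is not that of the females.

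Across the 10 genes, *Dhrs7l1* and *Hsd11b1* were called lower in females at an adjusted p of at most 0.05, where 1.14% of the 17631 genes tested were called lower, and none was called higher, where 1.26% were. When a difference of 1 or more in size on that scale was asked for too, *Dhrs7l1* alone remained, against 0.698% of all genes lower and 1.32% in either direction. At an unadjusted p under 0.05 there were 7 of 10, against 15.7% of all genes, and limma-voom called *Hsd17b2* as the only one of the 10 that was higher. Ranges of the sexes did not overlap for 2 of 10 genes, against 5.10% of all genes. These were *Dhrs7l1*, lower in females as were 2.60% of all genes, and *Hsd17b12*, higher as were 2.50%. Since the genes were picked from this contrast, nothing is read from these shares. Fold changes were positive in 5 genes and negative in 5, with a median of 0.08 against −0.01 over all genes tested.

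**Figure D3:**
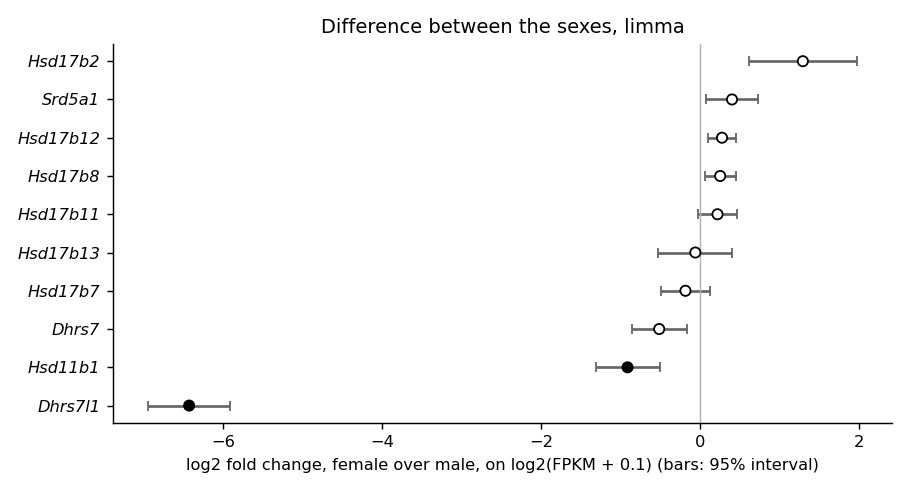
Log2 fold change of each of the 10 genes, female over male, on log2(FPKM + 0.1), with the 95% interval from limma; filled points have an adjusted p of at most 0.05. *Dhrs7l1* at −6.43 and *Hsd11b1* at −0.91 are the filled points, and the intervals of *Hsd17b11*, *Hsd17b13* and *Hsd17b7* include 0.

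The order of the levels was not used to choose the genes. The pairs compared are neighbours in an order set by the same 10 libraries, so their direction is fixed by the sorting and the p-values only describe how steady each step was from library to library. Pairs that hold *Dhrs7l1*, *Hsd11b1* or *Hsd17b2* also carry the difference between the sexes for which the genes were picked. By geometric mean over all 10 libraries, the order was *Hsd11b1*, *Hsd17b11*, *Hsd17b12*, *Hsd17b8*, *Dhrs7l1*, *Dhrs7*, *Hsd17b2*, *Srd5a1*, *Hsd17b7* and *Hsd17b13*, from 76.7 to 0.719 FPKM. Of the 9 neighbouring pairs, compared within libraries by an exact sign-flip permutation test (two-sided, adjusted over the 9), 5 had an adjusted p of at most 0.05. *Hsd17b11* exceeded *Hsd17b12* in 10 of 10 libraries by 0.90 on the log2 scale (exact adjusted p = 0.00586). *Srd5a1* exceeded *Hsd17b7* in 10 of 10 by 1.90, and *Hsd17b7* exceeded *Hsd17b13* in 10 of 10 by 0.72, at the same adjusted p. *Hsd17b12* exceeded *Hsd17b8* in 8 of 10 by 0.17 (exact adjusted p = 0.0176). *Dhrs7* exceeded *Hsd17b2* in 8 of 10 by 1.01 (exact adjusted p = 0.0492), with a mean log2 ratio of 1.94 in males (5 of 5 libraries) and 0.089 in females (3 of 5), and this call was lost in 8 of 10 runs without 1 library, all but those without female 4 or female 5, and when plain FPKM were averaged.

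The other 4 pairs missed the threshold over all libraries. *Hsd11b1* was above *Hsd17b11* in all 5 males and below it in all 5 females (exact adjusted p = 0.316 over all 10). *Dhrs7l1* was above *Hsd17b8* in all 5 males and below it in all 5 females, and the same held against *Dhrs7* (exact adjusted p = 0.316 and 0.760). *Hsd17b2* was above *Srd5a1* in 1 of 5 males and 4 of 5 females (exact adjusted p = 0.760). In males *Dhrs7l1* ranked first, with a geometric mean of 111 FPKM and a range that overlapped that of *Hsd11b1* at 105 FPKM. In females it ranked 8th at 1.19 FPKM, with a range that overlapped that of *Hsd17b7* at 1.10 FPKM, and *Hsd17b11* ranked first at 68.3 FPKM.

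**Figure D4:**
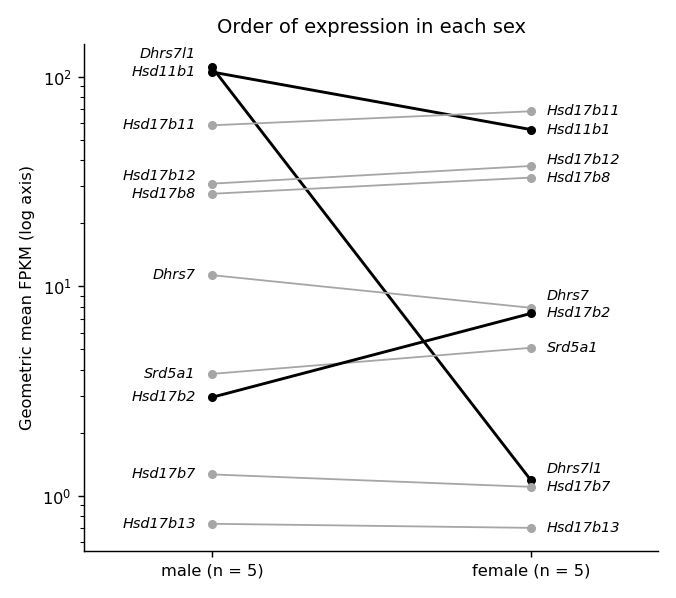
Geometric mean FPKM of each gene in males and females (n = 5 each) on a log axis, joined by a line. *Dhrs7l1* runs from 111 to 1.19 FPKM, *Hsd11b1* from 105 to 55.9 FPKM and *Hsd17b2* from 2.95 to 7.42 FPKM (black lines), while the other 7 genes (grey) shift less.

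Summed over the 10 genes, FPKM reached 361 ± 60.7 in males and 221 ± 29.1 in females (SD, n = 5 each), with sums of 296 to 426 and 195 to 267 FPKM that did not overlap. *Dhrs7l1* alone made up 25.7 to 40.1% of the sum in males and 0.446 to 0.843% in females. Without it the sums were 245 ± 23.3 FPKM in the males and 220 ± 29.1 FPKM in the females, and their ranges, 218 to 267 and 194 to 266 FPKM, overlapped.

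Further genes of the same pathways, 103 symbols in 106 rows, were listed by function but with earlier results of these data known. The p-values below are therefore not independent evidence. Of the 106 rows, 89 were tested. Of these, 2 were higher in females (*Klf15* and *Sult2b1*) and 3 lower (*Cidec*, *Esr1* and *Dgat2*), against 2.40% of all genes called in either direction. No gene was called among 11 other hydroxysteroid dehydrogenases and 5α-reductases, with 4 at an unadjusted p under 0.05, which 15.7% of all genes reached. None was called among 18 other *Dhrs*, *Rdh* and *Sdr* genes, with 5 at that level, and *Dhrs4*, the most abundant at 110 and 131 FPKM, differed by 0.24 ± 0.13 (SE, limma adjusted p = 0.425). The median log2 fold changes of these lists were −0.22 and 0.17.

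Among 7 tested steroid receptor rows, 2 reached an unadjusted p under 0.05, against 15.7% of all genes tested, and 1 was called, against 2.40%. The called gene was *Esr1*, the estrogen receptor α. It had 4.75, 5.58, 5.29, 6.88 and 5.03 FPKM in the males and 2.27, 1.66, 1.95, 3.72 and 2.43 FPKM in the females, with no overlap (−1.20 ± 0.20, SE, limma adjusted p = 0.00793, exact permutation p = 0.00794, the smallest that 5 against 5 allows). The glucocorticoid receptor *Nr3c1*, listed in 2 rows, differed by −0.11 (95% interval −0.29 to 0.07) and −0.03 (−0.34 to 0.27), and the mineralocorticoid receptor *Nr3c2* by 0.26 (−0.24 to 0.77).

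Of 9 tested rows of glucocorticoid-responsive genes, *Klf15*, a transcription factor that glucocorticoids induce, rose from 22.6 ± 2.44 to 38.3 ± 8.26 FPKM (SD, n = 5 each; log2 fold change 0.74 ± 0.14, SE, limma adjusted p = 0.0202, exact permutation p = 0.00794). It lost its call in 5 of 10 fits without 1 library, those without males 3, 4 or 5 and without females 3 or 4. *Sgk1*, the most abundant of the list and a kinase that activates sodium transport, differed the other way by −0.48 ± 0.20 (SE, limma adjusted p = 0.284). *Dusp1*, a phosphatase of MAP kinases named here after its values were seen, had the largest difference of the list, −0.96 ± 0.26 (SE, limma adjusted p = 0.0885, and 0.0275 to 0.174 without single libraries). In the list 3 fold changes were positive and 6 negative, with a median of −0.10, so the group did not move one way. None of 4 intercalated cell markers was called (smallest limma adjusted p = 0.0666), though all 4 had positive fold changes at an unadjusted p under 0.05, against 15.7% of all genes at that level in either direction. Their sums were 176 to 276 FPKM in females against 104 to 171 FPKM in males, and their part in these differences was not tested.

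Steroid conjugation gave 1 call in 3 tested genes, where 2.40% of all genes tested were called in either direction. At an unadjusted p under 0.05 there were 2 of 3, against 15.7% of all genes. *Sult2b1*, which sulfates cholesterol and related sterols, rose from 7.71 ± 1.22 to 15.6 ± 4.36 FPKM (SD, n = 5 each; 0.98 ± 0.18, SE, limma adjusted p = 0.0162, exact permutation p = 0.00794) and remained called in 10 of 10 fits without 1 library. It overlaps *Fam83e* on the other strand, whose reads cannot be told apart from it without a stranded count. *Sult1a1*, the most abundant of the list, differed by −0.26 ± 0.18 (SE, limma adjusted p = 0.531).

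The genes that work beside *Hsd17b12*, *Hsd17b8* and *Hsd17b7* gave no call. None of 10 tested fatty acid elongation rows passed, with a median of 0.10 and 2 at an unadjusted p under 0.05 (15.7% of all genes). *Tecr*, which catalyses the last step of the same elongation cycle, was above every male in every female, at 91.4 to 102 FPKM against 107 to 181 FPKM (0.38 ± 0.13, SE, limma adjusted p = 0.188, exact permutation p = 0.00794). *Hacd2*, of the preceding step and named here after its values were seen, was separated the other way, at 24.1 to 26.7 FPKM in males against 16.8 to 22.5 in females (−0.35 ± 0.10, SE, limma adjusted p = 0.0961). None of 4 mitochondrial fatty acid synthesis genes passed, nor did any reach an unadjusted p under 0.05, and *Cbr4*, the partner of *Hsd17b8*, differed by 0.13 (95% interval −0.19 to 0.44). None of 12 cholesterol synthesis genes passed, with 5 at an unadjusted p under 0.05 (15.7% of all genes), 9 positive and 3 negative fold changes and a median of 0.22. *Hsd17b7* itself was on the negative side at −0.18. None of 4 genes of NADPH supply passed, with 1 at an unadjusted p under 0.05, and *Idh1*, at 268 and 261 FPKM, differed by −0.06 ± 0.18 (SE, limma adjusted p = 0.908).

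Lipid droplet genes gave 2 calls in 11, both lower in females, where 1.14% of all genes tested were called lower. At an unadjusted p under 0.05 there were 3 of 11, against 15.7% of all genes. Besides the 2 called, this was *Cideb*, named here after its values were seen, which differed the other way (0.35 ± 0.11, SE, limma adjusted p = 0.149). In the list 6 fold changes were positive and 5 negative. *Cidec*, which fuses and enlarges lipid droplets, had 5.84, 9.20, 6.87, 11.6 and 11.1 FPKM in the males and 2.52, 1.92, 2.33, 1.53 and 3.30 FPKM in the females, with no overlap (−1.89 ± 0.24, SE, limma adjusted p = 0.00156, exact permutation p = 0.00794). *Dgat2*, an enzyme of the last step of triglyceride synthesis, fell by 0.45 on the log2 scale, from 9.55 ± 0.674 to 6.98 ± 0.825 FPKM (SD, n = 5 each; limma adjusted p = 0.0359, exact permutation p = 0.00794), but kept its call in only 2 of 10 fits without 1 library, those without female 2 or female 4. *Plin2*, the coat protein most abundant in the list, differed by −0.07 ± 0.11 (SE, limma adjusted p = 0.828), and the median of the list was 0.01.

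**Figure D5:**
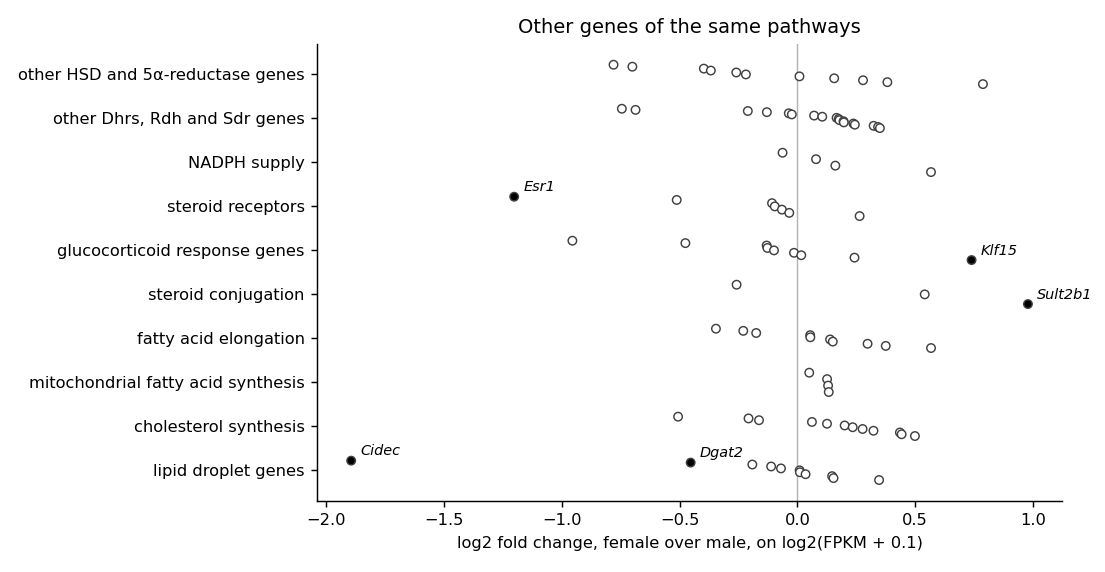
Log2 fold change, female over male, on log2(FPKM + 0.1), of 89 tested genes from 10 lists of related function, 1 point per gene spread within its list; filled points have a limma adjusted p of at most 0.05. The 5 filled points are *Esr1*, *Cidec* and *Dgat2* on the negative side and *Klf15* and *Sult2b1* on the positive side.

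Within each sex, the genes whose levels followed *Dhrs7l1* most closely from rat to rat were not ones that separated the sexes. Among 13363 genes averaging 1 FPKM or more, those with the highest Pearson's r to *Dhrs7l1* over the 10 libraries, after centring on the sex means, were *Dbi* (r = 0.985, rho = 0.976), *Mrpl33* (r = 0.978, rho = 0.964) and *Ilf2* (r = 0.976, rho = 0.976). Their log2 fold changes were 0.20, 0.25 and 0.13, none called. For *Hsd17b2* the highest were *Spp2* (r = 0.971, rho = 0.952) and *Ddc* (r = 0.964, rho = 0.952), with log2 fold changes of −0.03 and 0.46, neither called. All these points share a library and its depth, and the genes are the highest of many, so the values only describe likeness.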

How the data were processed

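Poly(A) RNA from the renal cortex of PCK rats was sequenced, with 1 library for each of 5 males and 5 females, and samples were grouped by the sex in the labels. Per the methods, a company sequenced the libraries and mapped them with HISAT2 to Ensembl Rnor_6.0, and the authors deposited FPKM per gene. The submitters' processing notes also name fastp, StringTie 1.3.3b and featureCounts 1.5.0-p3, with HISAT2 at 2.0.5, without their roles. The authors tested with DESeq2 on counts, which were not used here. FPKM divided by the worth of 1 read gave whole reads for 100% of values (within 0.0001 reads), and depths come from these reads.

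limma 3.58.1 in R 4.3.3 (lmFit, eBayes with trend) was run on log2(FPKM + 0.1) for 17631 genes averaging 0.1 FPKM or more, female minus male, with Benjamini-Hochberg adjustment over all of them. A call is an adjusted p of at most 0.05. Exact permutation tests of single genes are two-sided, on mean FPKM, and used scipy 1.17.1. Those of correlations, also two-sided, reordered the centred log2(FPKM + 0.1) values, or their ranks, within each sex. The sign-flip tests of order used log2 ratios of FPKM within libraries. P-values measure the spread between these rats, which were littermates. The fits were tested on simulated data.

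The members and the lists of further genes were chosen with earlier results of these data known. Named are all members, the most abundant gene and up to 4 called genes of smallest p in each list, *Hsd11b2*, *H6pd*, *Nr3c1*, *Nr3c2* and *Cbr4* in any case, and the 3 genes most like each of the 2 members with the largest fold change. Some genes that this rule names are not reported here. *Hacd2*, *Dusp1*, *Cideb* and the single markers were named after their values were seen. 11 listed genes were not matched by symbol and were not analysed here. Alternatives were other pseudocounts (1 and 0.01), other filters (none, 1 FPKM), quantile and median-ratio scaling, eBayes without trend, limma-voom on recovered reads, the replicate number as a block, the fold threshold and leaving out each library. Promoter sequences are from RefSeq (GRCr8).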

Additional observations from a re-analysis of the deposited data

Results flagged for a closer look

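In 58 groups of 5 libraries (29 genes in each sex), 2 values stood apart from the other 4 of their sex by Dixon's test, where chance gives about 1 in 20 groups, and both were in female 2, the library with 26.8% mitochondrial reads. *Dhrs7l1* was at 1.75 FPKM in female 2 and at 1.01 to 1.21 FPKM in the other females, all far below the 76.1 FPKM of the lowest male. *Tecr* was at 181 FPKM in female 2 and at 107 to 121 FPKM in the other females.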

How the results depend on the processing

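*Dhrs7l1* was called lower in females under every alternative, with log2 fold changes of −6.57 to −6.28 when 1 library was left out. The count of members higher in females went from 0 to 1 (*Hsd17b2*) with a pseudocount of 1, with the filter at a mean of 1 FPKM and with limma-voom, and was 0 to 1 without single libraries. The count lower went from 2 to 1 with the adjusted p and fold change together, and was 1 to 2 without single libraries. Among the further genes, the 2 calls higher became 0 with both thresholds and 1 to 4 without single libraries (4 without female 2), and the 3 lower were 2 to 3. By mean FPKM, *Hsd17b8* over *Dhrs7l1* turned to −28.6 FPKM, and *Dhrs7* over *Hsd17b2*, at 4.29 FPKM, missed the threshold (adjusted p = 0.0527, exact). Without single libraries, the log2 ratio was 0.74 to 1.20 for *Dhrs7* over *Hsd17b2*, −0.10 to 0.65 for *Dhrs7l1* over *Dhrs7* and −0.0033 to 0.24 for *Hsd17b2* over *Srd5a1*. Small differences that changed sign were *Hsd17b13* (0.058 with quantile normalization, −0.17 to 0.026 without single libraries), *Idh1* (−0.18 to 0.062), *H6pd* (−0.0060 to 0.19), *Plin2* (−0.14 to 0.014) and a row of *Nr3c1* (−0.14 to 0.071). The causes were not tested.

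Same-numbered males and females did not deviate together (correlations −0.16 to 0.16). Differently numbered rats were not compared, so these values cannot decide whether the numbers stand for a pairing or a litter. With the replicate number as a block, calls over all genes went from 223 higher and 201 lower to 119 and 112, and the further genes higher from 2 to 1, with *Klf15* and *Dgat2* no longer called while *Dhrs7l1* and *Hsd11b1* still were. *Hsd17b13* and *Hsd17b7* are limited by depth.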
